A study of Mus musculus with 2 samples.

Results

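Aerocyte-like capillary endothelial cells were described in 2 mouse lung libraries measured by droplet-based single-cell RNA sequencing, 1 from Normoxia and 1 from Hypoxia. A cell was counted as aerocyte-like when at least 4 of 10 endothelial genes (Cdh5, Pecam1, Flt1, Cldn5, Kdr, Tie1, Egfl7, Ramp2, Tmem100 and Calcrl) and at least 2 of 7 aerocyte genes (Car4, Ednrb, Fibin, Apln, Tbx2, Chst1 and Emp2) had a unique molecular identifier (UMI), the tag that marks 1 captured transcript. Of 886 retained cells 387 passed the endothelial condition, and 72 of these were aerocyte-like. They comprised 30 of 127 endothelial cells in the Normoxia library and 42 of 260 in the Hypoxia library. The other 97 and 218 endothelial cells, which had a UMI for 0 or 1 aerocyte gene, are called other endothelial cells.

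The alveolar capillary bed is built from a pair of endothelial cell types. Aerocytes, also called Car4-high capillary cells, are large, thin cells that face the alveolar air space and carry the membrane carbonic anhydrase Car4 and the endothelin receptor Ednrb. General capillary cells carry Gpihbp1, Plvap, Kit and Aplnr, the receptor for the peptide apelin, which aerocytes themselves make from Apln. General capillary cells are known to act as progenitors in capillary repair and to present antigen on MHC class II, whereas aerocytes are known for gas exchange and for a marked response to the growth factor VEGF-A through its receptor Kdr.

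Per the labels, both libraries came from sorted tdT cells of NG2tdT lungs digested with collagenase A and DNase I. The labels' design text describes NG2tdT mice as a tamoxifen-inducible Cre under the NG2 (Cspg4) promoter, a gene of pericytes, crossed with the Ai14 tdTomato reporter, and gives 2 mg tamoxifen per 30 g body weight with a wait of 7 days before the exposure. The Normoxia mice were untreated and the Hypoxia mice breathed 10% oxygen for 21 days. The study's text instead describes whole lungs of WT animals from which immune (CD45) and epithelial (CD326) cells had been removed, and names another deposit for those data. The labels were followed here. The files hold no tdTomato feature, and the labels speak of replicates while each group has 1 matrix. Each group therefore counted as 1 library, so no test between groups was possible, and every interval below is an exact 95% interval for counting error only. Cspg4 had 0 UMIs in the Normoxia and 1 UMI in the Hypoxia aerocyte-like cells.

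The 2 libraries held 1323874 and 1989423 UMIs over 373 and 613 barcodes, of which 330 and 556 cells were retained. Of the barcode sequences, 2 occurred in both libraries, 1 was retained in both, and 0 were aerocyte-like in either. Aerocyte-like cells carried a median of 2970 UMIs in Normoxia (range 737 to 17959) and 4556 in Hypoxia (range 1784 to 22216), against 2296 and 2397 in other endothelial cells. Summed over cells, the values below rest on 131595 and 270552 UMIs of aerocyte-like cells and on 237708 and 593978 UMIs of other endothelial cells. In the Hypoxia library 1 other endothelial cell held 14567 of the 14667 UMIs of the club cell gene Scgb1a1 among other endothelial cells, whereas the Hypoxia aerocyte-like cells held 42.

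The 7 aerocyte genes chose the cells, so their levels are given as a description. Levels are given as CPM, the UMIs of a gene divided by all UMIs of the cell set and scaled in the usual way. Car4 was the most abundant, with 457 UMIs in 27 of 30 Normoxia cells (3473 CPM, interval 3162 to 3806) and 510 UMIs in 37 of 42 Hypoxia cells (1885 CPM, interval 1725 to 2056). Emp2, a tetraspan membrane protein that alveolar type 1 cells also make, followed with 339 UMIs in 28 cells and 399 UMIs in 41 cells. Both genes were thus seen in nearly every member, and the remaining 5 markers in fewer. Fibin, a secreted protein, had 149 and 93 UMIs, and Ednrb 89 and 84 UMIs. The transcription factor Tbx2 had 44 and 69 UMIs, the sulfotransferase Chst1 40 and 62, and Apln 39 and 73. In lymphocytes, which should lack these genes, Car4 had 0 UMIs in 71 Normoxia cells and a UMI in 8 of 174 Hypoxia cells (4.60%, median depth 2575 UMIs).

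The number of markers per cell fell into 2 ranges (plot of cells by number of markers). In Normoxia 12, 8, 4 and 1 cells had 7, 6, 5 and 4 markers, 1 had 3 and 4 had 2. In Hypoxia 12, 8, 5 and 1 cells had 7, 6, 5 and 4 markers, 5 had 3 and 11 had 2. Cells with 2 or 3 markers therefore made up 5 of 30 Normoxia members (16.7%, interval 5.64 to 34.7) and 16 of 42 Hypoxia members (38.1%, interval 23.6 to 54.4). Of the 11 Hypoxia cells with 2 markers, 7 had Car4 with Emp2. Among the cells with 1 marker, that marker was Car4 in 26 of 34 Normoxia and 50 of 71 Hypoxia cells.

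**Figure D1:**
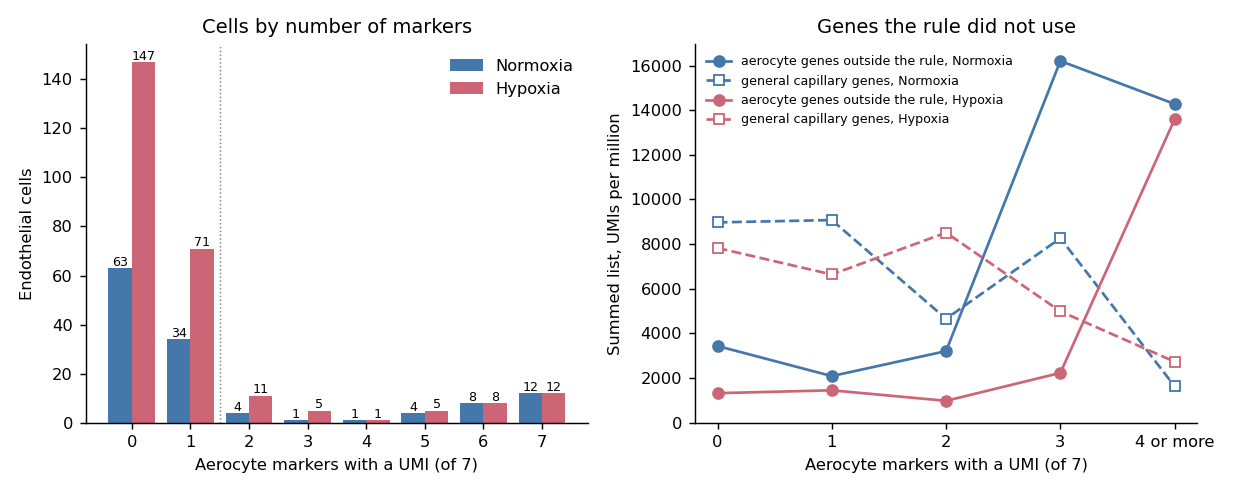
Left, endothelial cells (y axis, number of cells) by how many of the 7 aerocyte markers had a UMI (x axis), Normoxia in blue and Hypoxia in red, with the threshold of 2 markers dotted. Right, summed level (y axis, CPM) of 8 aerocyte genes outside the rule (filled circles) and 11 general capillary genes (open squares) by number of markers. In Hypoxia the aerocyte genes stood at 13594 CPM in the pooled point at 4 or more markers, although the 1 cell with exactly 4 held 1320 CPM. The Normoxia point at 3 markers is 1 cell.

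Whether the name fits was looked at on 8 aerocyte genes that the rule did not use (Prx, Cd34, Kitl, Pmp22, Sirpa, Igfbp7, Nckap5 and Rprml) and on 11 general capillary genes. Both lists were chosen with earlier results of these data known, so this was not an independent check. With 4 or more markers the 8 aerocyte genes summed to 14278 CPM in Normoxia and 13594 CPM in Hypoxia, against 3439 and 1327 CPM in cells with 0 markers. Igfbp7 held much of this sum. Without it, the other 7 genes summed to 4481 and 5217 CPM at 4 or more markers and to 908 and 1008 CPM at 0 markers. Just inside the threshold the sums differed between libraries, but few Normoxia cells made them. Cells with 2 markers held 3211 CPM of the 8 aerocyte genes and 4658 CPM of general capillary genes in Normoxia, and 984 and 8514 CPM in Hypoxia. Of these Normoxia cells, 2 carried 87 and 203 fibroblast gene UMIs, beside 20 and 44 UMIs of the 8 aerocyte genes. The remaining Normoxia cells held 1 and 6 UMIs of the aerocyte genes against 37 and 43 of general capillary genes. Just outside the threshold, cells with 1 marker held 2091 and 9079 CPM of the 2 lists in Normoxia, and 1454 and 6641 CPM in Hypoxia. Deeper cells have more chances to show a marker, and the Hypoxia cells with 2 or 3 markers had a median of 6222 UMIs, against 3998 in those with 4 or more. With every cell thinned to 1000 UMIs, cells with 3 markers held 10800 CPM of the 8 aerocyte genes in Normoxia and 15200 CPM in Hypoxia. The number of markers at which these genes rise thus depended on depth.

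Cell by cell, 15 of the 16 Hypoxia members with 2 or 3 markers carried more general capillary UMIs than UMIs of the 8 aerocyte genes, as did 2 of 5 in Normoxia (plot of both lists in each cell). The same held for 89 of 97 Normoxia and 206 of 218 Hypoxia other endothelial cells. Among members with 4 or more markers it held for 1 of 25 in Normoxia and 3 of 26 in Hypoxia, leaving 24 and 23 cells that are called the stricter set. This set was chosen after seeing the data, and since both lists chose it, their levels in it are a description. Its cells had median depths of 2903 and 3956 UMIs, and Car4 had a UMI in 24 of 24 and 23 of 23 of them. In the Hypoxia library the members with few markers thus go against the label, and the 1 exception there carried 314 fibroblast gene UMIs. Nor did the 3 remaining Normoxia members with few markers clearly fit it. Of these, 2 carried 87 and 203 fibroblast gene UMIs. The third had 43 of its 49 UMIs of the 8 aerocyte genes from Igfbp7, 25 general capillary UMIs and 1 UMI of Car4. Hypoxia against Normoxia values below are given for the members of the rule and, where stated, for the stricter set.

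**Figure D2:**
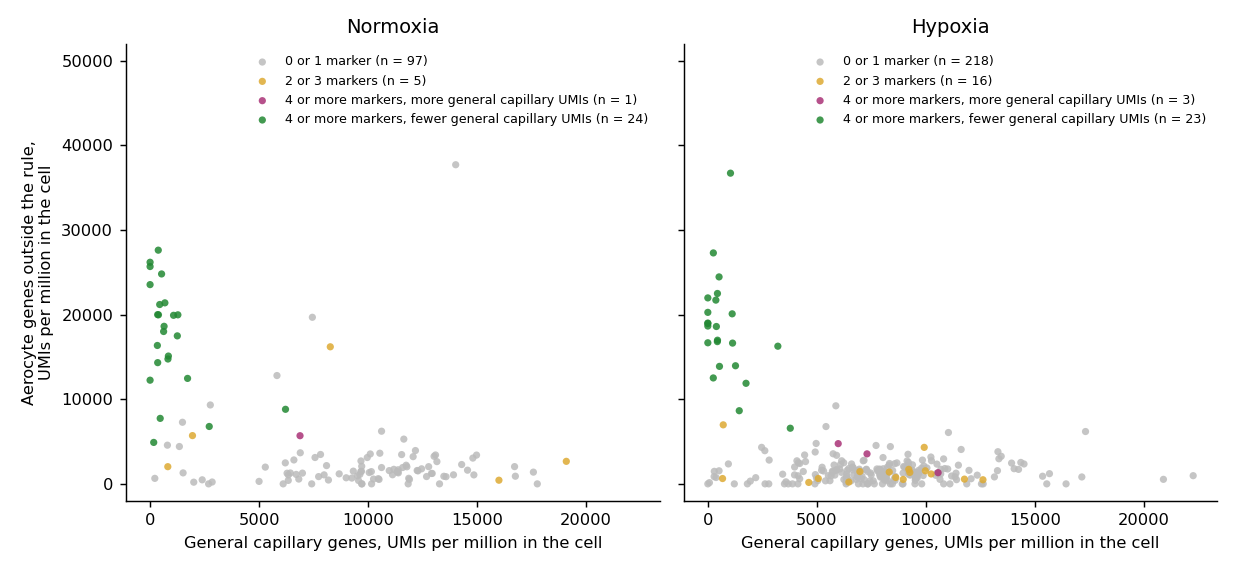
Each point is 1 endothelial cell, with the summed level of 11 general capillary genes (x axis) and of 8 aerocyte genes outside the rule (y axis), both in CPM of the cell, Normoxia left and Hypoxia right. The stricter set (green) reached medians of 18319 and 18602 CPM of the aerocyte genes, while 15 of 16 Hypoxia cells with 2 or 3 markers (yellow) carried more general capillary UMIs than UMIs of the aerocyte genes.

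Aerocyte-like cells made up 23.6% of endothelial cells in Normoxia (interval 16.5 to 32.0) and 16.2% in Hypoxia (interval 11.9 to 21.2), or 9.09% and 7.55% of all retained cells. For the stricter set the shares were 18.9% (interval 12.5 to 26.8) and 8.85% (interval 5.69 to 13.0). After every cell was thinned to 1000 UMIs, the shares by the rule were 22.7% and 11.8%. The share was lower in the Hypoxia library in each of these 3 counts, and the intervals of the 2 libraries overlapped in each. How the cells were dissociated and sorted can set such shares, and with 1 library per group its part cannot be told apart from that of the treatment.

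The first comparison asked how aerocyte-like cells differ from the other endothelial cells of the same library. A gene was called when the ratio of the 2 levels was at least 2-fold in the same direction in both libraries, over genes with at least 30 UMIs, with 0.5 UMI added to each sum. Of 5853 genes, 142 were higher (2.43%) and 82 lower (1.4%) in aerocyte-like cells. Since cells that carry the rule's genes were set apart, these ratios are a description. Of the 8 aerocyte genes outside the rule 7 were higher, with a median log2 ratio of 2.11 in Normoxia and 1.98 in Hypoxia, against -0.04 and 0.05 over all genes.

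Igfbp7, a secreted protein of the vessel wall that binds insulin-like growth factors, was at 8427 CPM in aerocyte-like and 1796 CPM in other cells in Normoxia (log2 2.23), and at 4443 and 323 CPM in Hypoxia (log2 3.78). Pmp22, a tetraspan membrane protein, was higher by 2.18 and 2.08 on the log2 scale, and the stem cell factor Kitl by 2.19 and 1.89. Prx, a scaffold protein known from Schwann cells, was higher by 1.93 and 1.39, and the sialomucin Cd34 by 1.48 and 1.20. These 5 genes were therefore more than 2-fold higher in both libraries. Sirpa, a receptor for CD47, had 12 UMIs against 5 and 23 against 2, and Rprml 38 against 5 and 34 against 9. Nckap5 was the exception, with 7 UMIs against 35 in Normoxia (log2 -1.47) and 34 against 91 in Hypoxia (log2 -0.29).

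General capillary genes lay on the other side. Of 10 with enough UMIs, 2 passed 2-fold in both libraries, and the median log2 ratio was -2.01 in Normoxia and -0.75 in Hypoxia. Plvap, the diaphragm protein of fenestrae and caveolae, was at 372 CPM in aerocyte-like and 1767 CPM in other cells in Normoxia (log2 -2.25), and at 70.2 and 379 CPM in Hypoxia (log2 -2.43). Lpl, lipoprotein lipase, had log2 ratios of -1.12 and -2.08. Gpihbp1, which anchors that lipase on capillary cells, was at 441 against 1763 CPM (log2 -2.00) and at 795 against 1554 CPM (log2 -0.97), just short of 2-fold in Hypoxia. The summed list had a log2 ratio to other cells of -1.97 in Normoxia and -0.61 in Hypoxia for all members. For members with 4 or more markers it was at 1634 against 9015 CPM in Normoxia (log2 -2.46, interval -2.69 to -2.24) and at 2737 against 7344 CPM in Hypoxia (log2 -1.42, interval -1.58 to -1.27).

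Genes of signalling between capillary cells were counted next, and most of those called higher were genes that chose the cells. In the VEGF, angiopoietin and apelin list, 3 of 11 genes with enough UMIs were higher and 0 lower, beside 2.43% and 1.4% over all genes. They were Apln and Kdr, which the rule used, and Nrp1, a co-receptor for VEGF-A (log2 1.61 and 1.09). Kdr, the main VEGF-A receptor and 1 of the 10 endothelial genes, was at 1026 against 261 CPM in Normoxia and at 784 against 217 CPM in Hypoxia (log2 1.98 and 1.85). The other 9 endothelial genes differed by less than 2-fold in both libraries. Of 11 vasoactive genes with enough UMIs 1 was higher, Ednrb, which the rule used, and 2 were lower. Edn1, the endothelin-1 ligand of that receptor, had 9 UMIs against 130 in Normoxia (log2 -3.00) and 48 against 369 in Hypoxia (log2 -1.81). Nos3, the endothelial nitric oxide synthase, had 0 UMIs against 8 and 8 against 40.

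Among the 12 genes named by rule as highest in aerocyte-like cells, Ccdc184 had 26 UMIs in 14 of 30 Normoxia and 24 UMIs in 14 of 42 Hypoxia members. Other endothelial cells had 0 UMIs of Ccdc184 in both libraries, which allows up to 12.6 CPM in Normoxia and 5.05 CPM in Hypoxia. The sulfotransferase Chst2 and the matrix protein Egflam were also at 0 in other endothelial cells, with 18 and 19, and 18 and 14 UMIs in members. These 3 genes had no UMI in other endothelial cells of either library. The non-coding RNA AW112010 was higher by 4.06 in Normoxia and 4.72 in Hypoxia on the log2 scale, and the integrin subunit Itgb5 by 4.76 and 3.72. The cell cycle inhibitor Cdkn2b was higher by 4.66 and 3.13, the secreted chaperone Clu by 2.65 and 2.99, and Enho, which encodes the peptide adropin, by 3.29 and 2.82. Adamtsl5 had 7 UMIs against 1 and 23 against 0.

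**Figure D3:**
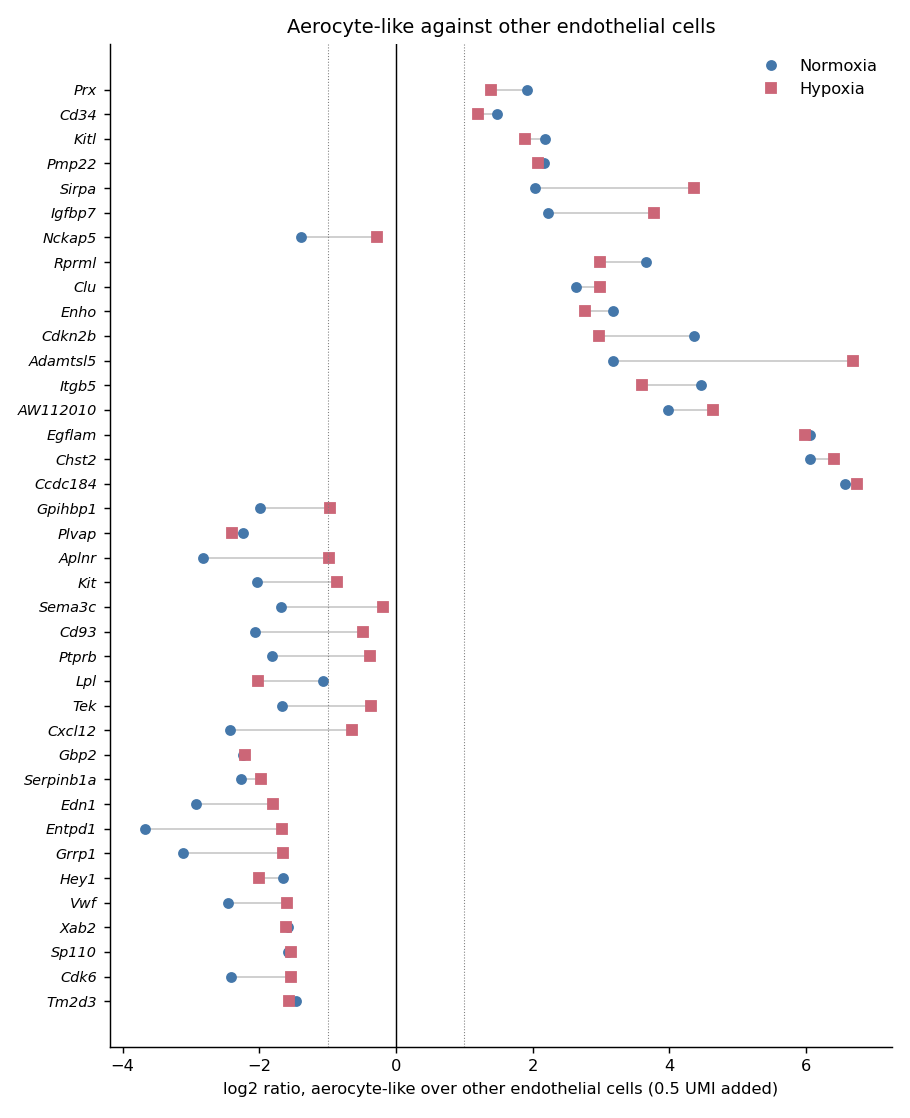
log2 ratio of the level in aerocyte-like over other endothelial cells (x axis, 0.5 UMI added) for the 8 aerocyte and 10 general capillary genes and further genes named by rule (y axis), Normoxia as blue circles and Hypoxia as red squares, with 2-fold dotted. Nckap5 is the 1 aerocyte gene left of 0, at log2 -1.47 in Normoxia and -0.29 in Hypoxia when no UMI is added.

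Among the 12 named as lowest, Vwf, the von Willebrand factor of larger vessels, had 4 UMIs against 44 in Normoxia (log2 -2.61) and 47 against 314 in Hypoxia (log2 -1.61), and 0 UMIs in the stricter set of both libraries. Gbp2, an interferon-induced GTPase, had log2 ratios of -2.39 and -2.31, and the protease inhibitor Serpinb1a -2.47 and -2.06. Hey1, a Notch target, had -1.73 and -2.07. Entpd1, the ectonucleotidase CD39, had 0 UMIs against 11 and 5 against 38, and Grrp1 1 against 23 and 18 against 127. The remaining 4 were Xab2, Sp110, Cdk6 and Tm2d3, each with at most 8 UMIs in the members of either library. Plvap and Edn1 completed the list.

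Outside these lists, Hspb1, a small heat shock protein, was higher in aerocyte-like cells by 2.15 and 2.01 on the log2 scale, Cdkn1a, the p21 cell cycle inhibitor, by 1.36 and 1.31, and the cytochrome P450 Cyp4b1 by 1.77 and 2.43. MHC class II genes were lower for 3 of 7, namely Cd74 (log2 -3.39 and -1.08), H2-Ab1 (log2 -2.21 and -1.05) and H2-DMb1. With enough UMIs were 8 KLF factors, 10 MHC class I, 12 junction and 15 BMP and TGF-beta genes, and 0 of them were called in either direction.

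Genes of other cell types were counted beside these results. The 10 alveolar type 1 genes summed to 71 UMIs in Normoxia and 187 in Hypoxia members. Against other endothelial cells their log2 ratio was 0.58 (interval 0.10 to 1.05) and 0.79 (interval 0.50 to 1.07). Of these genes, the defining Ager had 0 UMIs in Normoxia and 1 in Hypoxia members, Aqp5 0 and 1, Cldn18 0 and 0, and Rtkn2 0 and 0, while Clic5 had 58 and 163 UMIs and Hopx 10 and 18. Members with 2 or more genes of this list numbered 6 of 30 in Normoxia and 18 of 42 in Hypoxia. The 2 fibroblast genes called higher, Inmt and Mfap4, came from few cells: 23 of 23 Normoxia UMIs and 211 of 214 Hypoxia UMIs of Inmt lay in 1 cell each. The stricter set had 0 and 1 UMIs of Inmt. In Normoxia 1 member of the stricter set carried 58 UMIs of T or NK cell genes. The part of such cells in the ratios was not tested beyond leaving out cells with 2 or more genes of another type. Members of this kind numbered 8 of 30 in Normoxia and 20 of 42 in Hypoxia, counting those with alveolar type 1 genes.

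The second comparison asked how aerocyte-like cells differ between the Hypoxia and the Normoxia library. Of 2506 genes with at least 30 UMIs, 201 were at least 2-fold higher (8.02%) and 129 at least 2-fold lower (5.15%) in Hypoxia. In cells with 4 or more markers, 74 of 1471 genes were higher (5.03%) and 47 lower (3.2%). The stricter set had 56 of 1167 higher (4.8%) and 49 lower (4.2%). Other endothelial cells had 156 of 4447 higher (3.51%) and 168 lower (3.78%). Of the 201 genes higher by the rule, 13 were also called in the stricter set, 10 were not, and 178 had too few UMIs there, and 30 of the 201 had the opposite sign. Of the 129 lower genes, 16 were also called, 43 were not, and 70 had too few UMIs there, and 7 of the 129 had the opposite sign. Several of the 16 leaned on 1 Normoxia member. For Coro1a 1 member held 28 of 30 Normoxia UMIs, for Hmgb2 37 of 46 and for H2afz 50 of 82. For Mkln1 1 member held 21 of 32, for Fos 25 of 43 and for Isg15 13 of 25. All 65 UMIs of Lgals1 in the stricter Normoxia set lay in 1 cell. Most calls made by the rule thus could not be followed into the stricter set.

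Bnip3, a mitochondrial protein of mitophagy and a target of the hypoxia-inducible factors (HIF), had 5 UMIs in 3 of 30 Normoxia members (38.0 CPM) and 60 UMIs in 28 of 42 Hypoxia members (222 CPM), log2 2.55 (interval 1.24 to 4.22). In the stricter set it had 5 UMIs in 3 of 24 and 32 UMIs in 15 of 23 cells, log2 2.74 (interval 1.37 to 4.46), and in other endothelial cells the log2 ratio was 2.59. Lymphocytes had Bnip3 in 1 of 71 and 5 of 174 cells. Ldha, which converts pyruvate to lactate, had 31 and 139 UMIs, log2 1.12 (interval 0.55 to 1.74), with 27 and 77 UMIs in the stricter set (log2 1.57, interval 0.93 to 2.26) and log2 1.28 in other endothelial cells. Both genes were thus higher in Hypoxia in all 3 cell sets. The share of cells with a UMI also depends on depth. With each cell of the stricter set thinned to 1000 UMIs, which left out 1 Normoxia cell, Bnip3 had a UMI in 2 of 23 Normoxia and 3 of 23 Hypoxia cells and Ldha in 5 of 23 and 9 of 23, so the difference in Bnip3 was not detectable cell by cell at that depth.

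The 250 bases before the annotated start sites are shown for Bnip3, Ldha and Hpgd. Bnip3 and Ldha were among the genes higher in Hypoxia in every cell set. Of the genes called lower both over all members and in the stricter set, Hpgd had the most UMIs. Other genes were also higher in every cell set, such as Scn7a, with log2 1.80 over all members, 1.62 in the stricter set and 1.30 in other endothelial cells. Their windows are not shown. The genes shown were chosen after their values were seen, so their windows do not describe the higher or lower genes as a group. The bases come from RefSeq, build GRCm38.p6, at chr7:138909507-138909756 on the minus strand for Bnip3, chr7:46845554-46845803 on the plus strand for the first of 2 Ldha start sites, and chr8:56294302-56294551 on the plus strand for Hpgd. Capitals mark ACGTG or CACGT, the 2 readings of the HIF core motif on either strand, which overlap where CACGTG occurs.
Bnip3: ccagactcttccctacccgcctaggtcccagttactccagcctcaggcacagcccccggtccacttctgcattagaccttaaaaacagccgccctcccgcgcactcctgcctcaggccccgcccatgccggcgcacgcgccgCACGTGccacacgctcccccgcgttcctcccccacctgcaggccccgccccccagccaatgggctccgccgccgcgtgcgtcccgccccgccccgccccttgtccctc
Ldha: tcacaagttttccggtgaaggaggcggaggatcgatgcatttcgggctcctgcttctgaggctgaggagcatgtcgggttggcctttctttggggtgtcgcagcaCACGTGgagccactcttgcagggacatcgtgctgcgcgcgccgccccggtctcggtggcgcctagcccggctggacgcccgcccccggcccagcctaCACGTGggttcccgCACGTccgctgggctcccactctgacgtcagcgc
Hpgd: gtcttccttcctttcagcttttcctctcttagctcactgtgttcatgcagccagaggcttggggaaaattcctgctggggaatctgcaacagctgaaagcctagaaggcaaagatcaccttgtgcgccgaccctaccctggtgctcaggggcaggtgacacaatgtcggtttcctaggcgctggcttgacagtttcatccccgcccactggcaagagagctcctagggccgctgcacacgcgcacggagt
With each reading counted, Bnip3 had 2 matches, Ldha 5 and Hpgd 0. The other Ldha start site had 0. Of 32851 start sites in the table, 5444 (16.6%) hold the motif in such a window. A match is a description of the letters, not of binding, and its absence says only that these letters are not in this window.

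The glycolysis list held 2 genes higher and 0 lower of 10 with enough UMIs, Ldha and Pfkl, with a median log2 ratio of -0.01, the same as over all genes. Pfkl, the liver-type phosphofructokinase, had 8 and 38 UMIs (log2 1.21, interval 0.09 to 2.52). Within the stricter set 2 of 6 were higher, Ldha and the pyruvate kinase Pkm, and the median was 0.41, against 0.01 over all genes. Pkm had 37 and 73 UMIs there (log2 1.04, interval 0.45 to 1.65), but log2 0.47 over all members. The aldolase Aldoa was left out of the list because its symbol has 2 entries, of which 1 had no UMI. The other had 57 UMIs in 21 of 30 Normoxia and 303 UMIs in 38 of 42 Hypoxia members (log2 1.37, interval 0.96 to 1.81). It had 47 and 166 UMIs in the stricter set (log2 1.88, interval 1.41 to 2.38) and log2 0.82 in other endothelial cells. Of 7 other HIF targets, 3 were higher (Bnip3, Ndrg1 and Mif) and 1 was lower, Hilpda. Ndrg1 and Mif had at most 4 UMIs per library in the stricter set.

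Hilpda, an inhibitor of lipid droplet breakdown and a known HIF target, went the other way from Bnip3, with 84 UMIs in Normoxia (638 CPM) and 72 in Hypoxia (266 CPM), log2 -1.26 (interval -1.74 to -0.79). Its stricter-set values were 55 and 23 UMIs, log2 -1.20, and in other endothelial cells log2 -1.54. Epas1, which encodes HIF2α, had 177 UMIs in Normoxia (1345 CPM) and 441 in Hypoxia (1630 CPM), log2 0.28 (interval 0.02 to 0.54), but 138 and 121 UMIs in the stricter set, log2 -0.13 (interval -0.49 to 0.24). Its transcript level thus lay near equality, and its sign changed with the cell set. Hif1a was scarce, with 6 and 19 UMIs in members and 6 and 5 in the stricter set.

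Hpgd, the enzyme that breaks down prostaglandins, had 275 UMIs in 26 of 30 Normoxia members (2090 CPM, interval 1850 to 2352) and 115 UMIs in 36 of 42 Hypoxia members (425 CPM, interval 351 to 510), log2 -2.30 (interval -2.62 to -1.98). In the stricter set it had 245 UMIs in 23 of 24 cells and 50 UMIs in 19 of 23 cells, log2 -2.23 (interval -2.70 to -1.79), and in other endothelial cells log2 -1.49. In the thinned stricter set Hpgd had a UMI in 20 of 23 cells (Normoxia) and 9 of 23 (Hypoxia), so the lower level went with fewer positive cells at equal depth. Lymphocytes had 10.8 and 11.7 CPM of Hpgd. Aldh2, the mitochondrial aldehyde dehydrogenase, had 98 and 73 UMIs, log2 -1.46, with log2 -1.24 in the stricter set and -1.19 in other endothelial cells. Cdkn2b had 28 UMIs in 9 cells and 12 UMIs in 11 cells, log2 -2.26, and log2 -1.29 in the stricter set (interval -2.44 to -0.23). Fos, an immediate early gene that tissue digestion is known to induce, had 43 and 11 UMIs, of which 25 lay in 1 Normoxia cell, and in the stricter set 40 UMIs in 6 Normoxia cells and 0 in Hypoxia, which allows up to 32.0 CPM.

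**Figure D4:**
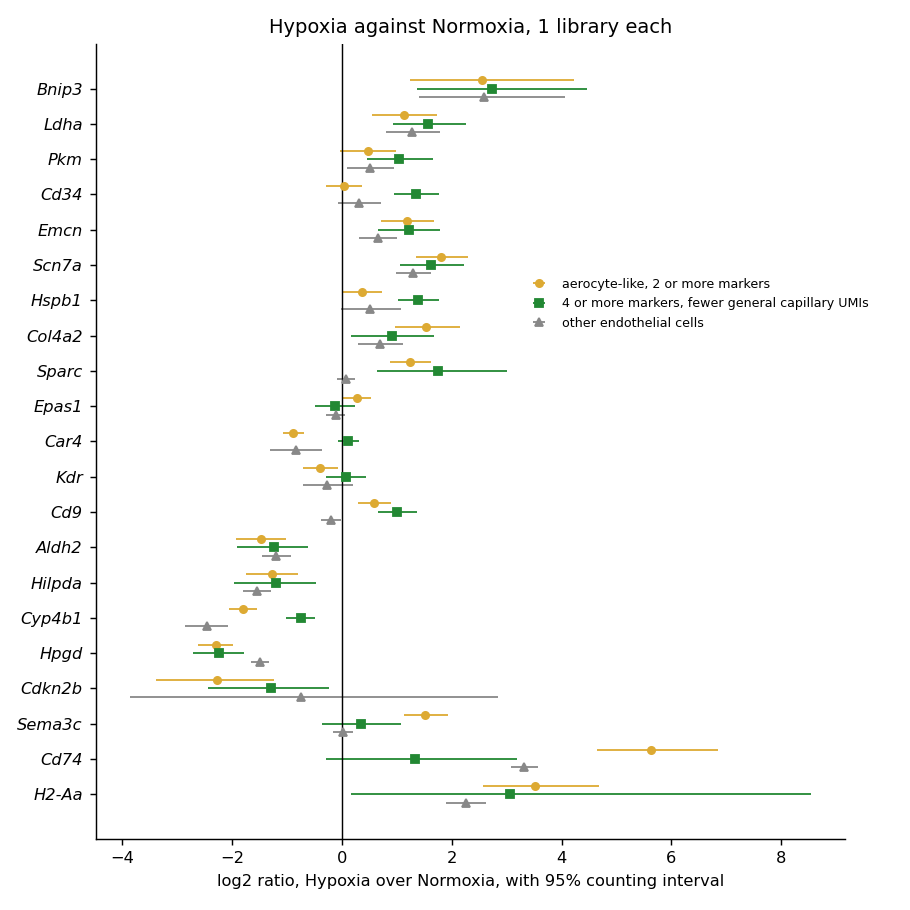
log2 ratio of the Hypoxia over the Normoxia level (x axis) with its exact 95% counting interval for selected genes (y axis) in all aerocyte-like cells (yellow circles), in the stricter set (green squares) and in other endothelial cells (grey triangles). Bnip3 and Ldha lie right of 0 and Hpgd, Aldh2 and Hilpda left of 0 in all 3 sets, while Car4 lies at -0.88 in all members and at 0.12 in the stricter set.

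The aerocyte genes themselves depended on which members were counted. Over all members the 7 genes of the rule summed to a log2 ratio of -0.88, with Car4 at -0.88 (interval -1.07 to -0.70), Ednrb at -1.12 and Fibin at -1.72. Within the stricter set the sum was 0.07 (interval -0.05 to 0.20), with Car4 at 4478 CPM in Normoxia and 4868 CPM in Hypoxia. Fibin remained below equality there, with 141 and 88 UMIs (log2 -0.62, interval -1.02 to -0.22), and Apln had 37 and 62 UMIs (log2 0.81, interval 0.20 to 1.44). The rule used all 7 genes, so these values carry no weight beyond description. The 8 aerocyte genes outside the rule summed to -0.74 over all members and to 0.23 in the stricter set. Among them Cd34 was 2-fold higher in the stricter set, with 73 and 179 UMIs (log2 1.36, interval 0.96 to 1.77), and at log2 0.04 over all members. Cyp4b1 was lower over all members (log2 -1.80) and had log2 -0.74 in the stricter set (interval -1.01 to -0.48), beside -2.46 in other endothelial cells.

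General capillary genes were higher in the Hypoxia members for 5 and lower for 1 of 9, with a median of 1.23. Sema3c, a secreted semaphorin, had 62 and 365 UMIs (log2 1.52, interval 1.13 to 1.93), Ptprb 42 and 224 (log2 1.38), and the chemokine Cxcl12 17 and 207 UMIs (log2 2.57, interval 1.85 to 3.37). Within the stricter set Sema3c had 32 and 39 UMIs (log2 0.35), Ptprb 22 and 8, and Cxcl12 2 and 7. The summed list stood there at log2 -0.39 (interval -0.81 to 0.03). Without 1 Normoxia cell that held 74 of its 116 UMIs, the sum stood at log2 0.89 (interval 0.34 to 1.46). Kit and Aplnr, with 26 and 30 UMIs in Hypoxia members, had 1 UMI each in the stricter Hypoxia set. The stricter Hypoxia set leaves out the 16 members with 2 or 3 markers, 15 of which had more general capillary than aerocyte UMIs, and 3 of the 26 with 4 or more. Plvap was lower over all members, with 49 and 19 UMIs (log2 -2.41), beside log2 -2.22 in other endothelial cells. It was seen in 4 Normoxia members (13.3%) and 9 Hypoxia members (21.4%), and 21 of the 49 UMIs lay in 1 cell. The stricter set had 7 and 0 UMIs, too few for a call, and the 7 lay in 1 cell.

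MHC class II genes, which present peptides to CD4 T cells, were higher in the Hypoxia members. All 6 that passed were higher in Hypoxia, with a median log2 ratio of 4.38, and the 7 genes summed to 33 UMIs in Normoxia members (251 CPM) and 1523 UMIs in Hypoxia members (5629 CPM). Cd74, the invariant chain, had 8 and 816 UMIs (log2 5.63, interval 4.65 to 6.85). The UMIs were unevenly spread over members: the 16 Hypoxia cells with 2 or 3 markers held 1031, and the 3 with more general capillary UMIs held 460, of which 335 lay in 1 cell. Without that cell the Hypoxia members held 1188 UMIs (4765 CPM, log2 4.25, interval 3.75 to 4.79). B cell genes, a list of 6, moved along: they summed to 3 UMIs in Normoxia and 57 in Hypoxia members, 38 of them in that same cell, with Ms4a1 at 0 in both libraries, and to 2 and 9 UMIs in the stricter set. Their part in the MHC class II values was not tested. The stricter set held 9 UMIs in Normoxia (91.8 CPM) and 32 in Hypoxia (341 CPM), log2 1.89 (interval 0.79 to 3.14), with no UMI in 20 of 24 and 11 of 23 cells. Other endothelial cells held 1683 and 11283 CPM, and lymphocytes 15077 and 16555 CPM. The level in the stricter Hypoxia set was therefore far below that of the other endothelial cells of the same library, and whether free RNA contributed to its 32 UMIs was not tested.

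**Figure D5:**
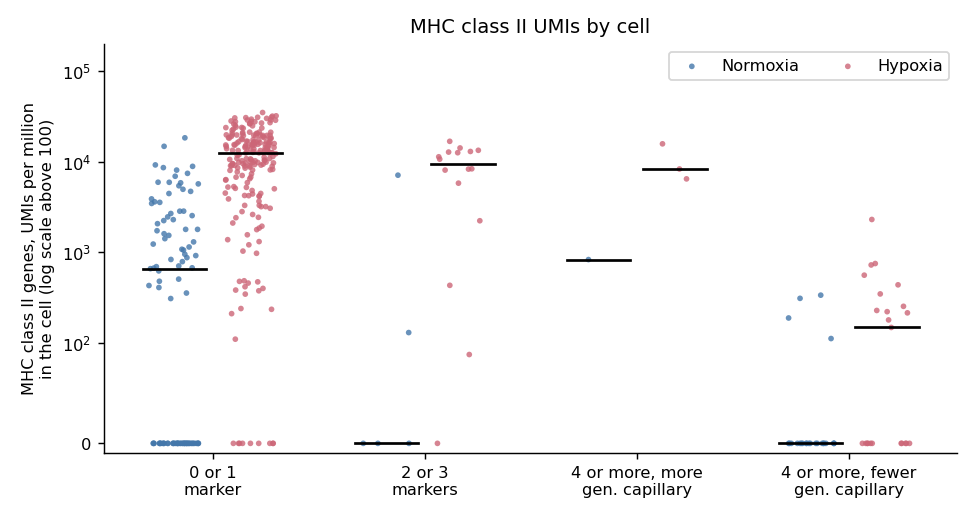
Summed MHC class II level of each cell (y axis, CPM of the cell, log scale above 100 and linear below) for endothelial cells grouped by aerocyte markers (x axis), Normoxia in blue and Hypoxia in red, with bars at the medians. In Hypoxia the medians were 12542 CPM with 0 or 1 marker, 9519 with 2 or 3, 8318 with 4 or more and more general capillary UMIs, and 148 in the stricter set.

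Ntrk2, the receptor for the neurotrophin BDNF, had 1 UMI in Normoxia members and 173 UMIs in 24 of 42 Hypoxia members. The stricter set had 0 UMIs of Ntrk2 in Normoxia, which allows up to 30.6 CPM, and 18 UMIs in 10 of 23 Hypoxia cells (192 CPM, interval 114 to 303). Other endothelial cells had 79.9 and 662 CPM, and lymphocytes 0 and 6.71 CPM. After thinning, the stricter set had a UMI of Ntrk2 in 0 of 23 cells (Normoxia) and 6 of 23 (Hypoxia). Ntrk2 was thus seen in the stricter Hypoxia cells above the level of lymphocytes and below that of other endothelial cells. Cdk19, a Mediator kinase, had 0 and 141 UMIs in members, and 0 and 7 UMIs in the stricter set, the 7 in 2 cells. Of the other genes named by rule as highest in Hypoxia, H2-Eb1, H2-DMb1, Prex2, Iigp1, Slc26a10, Nr1d1 and Amd1, all but Nr1d1, a repressor of the circadian clock, had at most 4 UMIs in the stricter Hypoxia set. Nr1d1 had 0 and 8 UMIs there.

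Among the genes named as lowest in Hypoxia, Lgals1, a galectin, had 148 and 23 UMIs, and in the stricter set 65 of its UMIs lay in 1 Normoxia cell. S100a6, Ifi27l2a, Fstl1 and Nid1 had 26, 21, 5 and 15 UMIs in the stricter Normoxia set and at most 5 in the stricter Hypoxia set. All had too few UMIs there for a call, and the 21 of Ifi27l2a lay in 1 cell. Tppp3 was lower over all members (log2 -1.81), but had 45 and 37 UMIs in the stricter set (log2 -0.22, interval -0.89 to 0.44). Hpgd and Cdkn2b were therefore the genes of this list that were called in both sets without 1 cell holding most of the UMIs.

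Genes of the vessel wall differed by set as well. Of 4 basement membrane genes with enough UMIs, 3 were higher (Sparc, Col4a1 and Col4a2) and 1, Nid1, was lower over all members, with a median of 1.38. Sparc, a collagen-binding matrix protein, had 74 and 360 UMIs (log2 1.24) and in the stricter set 9 and 29 UMIs (log2 1.75, interval 0.63 to 3.01), beside log2 0.07 in other endothelial cells. Col4a1 and Col4a2, the main collagen IV chains, had log2 1.59 and 1.54 over all members, and 0.70 (interval -0.21 to 1.64) and 0.91 (interval 0.17 to 1.68) in the stricter set. Scn7a, which encodes an atypical sodium channel, had 44 and 315 UMIs (log2 1.80, interval 1.34 to 2.29), with log2 1.62 in the stricter set and 1.30 in other endothelial cells. The sialomucin Emcn had log2 1.18 and 1.22 in the 2 sets. Timp3, a metalloprotease inhibitor, had log2 1.12 and 1.51, beside -0.22 in other endothelial cells.

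In the heat shock list 1 of 8 genes was higher over all members and 3 of 6 in the stricter set, where the summed log2 ratio was 0.74 (interval 0.56 to 0.92). Hspa1a, an inducible HSP70, had 7 UMIs in 6 of 24 and 77 UMIs in 17 of 23 cells there (log2 3.52, interval 2.41 to 4.88), and Hspb1 85 and 213 UMIs (log2 1.39, interval 1.02 to 1.77). After thinning, Hspa1a had a UMI in 1 of 23 and 10 of 23 cells of the stricter set. Over all members Hspa1a had log2 0.86, with 17 of its 25 Normoxia UMIs in 1 cell. Both genes respond to handling of cells as well, and a part of dissociation was not tested. The lists of caveolae, KLF factors and Notch genes had 0 genes called over all members and in the stricter set. The MHC class I, BMP and TGF-beta, junction and vasoactive lists had 0 called in the stricter set only. Over all members 1 of 10 MHC class I and 1 of 11 junction genes were higher. There 1 of 12 BMP and TGF-beta genes was higher and 2 were lower, and 2 of 7 vasoactive genes were higher and 1 lower. Over all genes 8.02% were higher and 5.15% lower.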

How the data were processed

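Both libraries were prepared with 10x Genomics droplet chemistry for 3' ends. The values the authors deposited are UMI counts, whole numbers that were not normalized and in which amplified copies are already collapsed. The matrix headers name Cell Ranger 3.1.0, and the study's methods state STAR and mm10.

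Cells were kept with at least 200 and no more than 6000 genes and with mitochondrial UMIs of 10% or less. UMIs were summed over the cells of a set and divided by all UMIs of the set (CPM). Ratios carry exact conditional binomial intervals, levels exact Poisson and shares exact Clopper-Pearson intervals, all at 95% and for counting error only. Genes with at least 30 UMIs were called at 2-fold, with 0.5 UMI added to each sum for calls, ranks and medians. Printed ratios have no UMI added.

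Named genes outside the rule were the 12 highest and 12 lowest by the smaller log2 ratio of both libraries, detected in at least 10% of the cells of the higher set, and the 10 highest and 10 lowest between libraries, also detected in 10% of the cells of 1 library, with an interval without 0 and no cell holding over 50% of the UMIs. Mitochondrial, ribosomal protein, Gm and Rik genes were left out, and other genes named in the text were chosen after their values were seen. Some genes that meet the rule are not reported here. The members, the rule and the gene lists were chosen with earlier results of these data known. No doublet caller was run. Aldoa and Ccl21a, whose symbols have 2 entries, were left out of the lists.

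Alternatives were other cell filters and marker minimums, thinning of each cell to 1000 UMIs, removal of cells with 2 or more genes of another cell type, mean per-cell CPM, median scaling and minimums of 10 and 100 UMIs. The minimum of 4 markers and the stricter set, and sums without 1 cell, were chosen after seeing the data. The script was tested on simulated data. Python 3.11.15, numpy 2.4.6, scipy 1.17.1, pandas 2.3.3 and matplotlib 3.10.9 were used.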

Additional observations from a re-analysis of the deposited data

Results flagged for a closer look

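The general capillary list summed to a Hypoxia against Normoxia log2 ratio of 1.07 in aerocyte-like cells and -0.30 in other endothelial cells, with intervals on opposite sides of 0, and the stricter set, which this list chose, stood at -0.39. In that set 74 of the 116 Normoxia UMIs lay in 1 cell, and without it the log2 ratio was 0.89 (interval 0.34 to 1.46), from 42 UMIs (488 CPM) in Normoxia and 85 UMIs (906 CPM) in Hypoxia. Impdh1, which makes guanine nucleotides, had log2 0.46 in aerocyte-like and -0.40 in other endothelial cells, and 1.05 in the stricter set. The tetraspanin Cd9 had log2 0.59 against -0.19, and 1.01 in the stricter set. Gpx3, a secreted glutathione peroxidase, had log2 2.11 against -3.40, with 117 of its 142 UMIs in Hypoxia members in 1 cell. These differences between cell sets rest on 1 library per group and were not tested.

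Cells with aerocyte markers also occurred outside the endothelial cells. In Normoxia 25 and in Hypoxia 9 retained cells had 2 or more aerocyte markers but fewer than 4 endothelial genes. Emp2 had a UMI in 16 and 8 of them, Tbx2 in 15 and 4, and Fibin in 11 and 2, and no cell had more than 3 markers. Of these cells 23 and 6 had 2 or more fibroblast genes.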

How the results depend on the processing

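No paired analysis was possible because each group has 1 library. By the rule, 23.6% of Normoxia and 16.2% of Hypoxia endothelial cells were aerocyte-like, 142 genes were higher and 82 lower than in other endothelial cells, 2 general capillary genes were lower, and 201 and 129 genes were higher and lower in Hypoxia, among them 6 MHC class II, 3 other HIF target, 2 glycolysis and 3 basement membrane genes that were higher. With a maximum of 4000 genes, 143 genes and 6 general capillary genes were lower than in other cells, 77 and 74 genes were called in Hypoxia, and the aerocyte genes outside the rule were at 16181 and 15284 CPM at 4 or more markers. With at least 3 markers these lower counts were 166 and 7, and 85 genes were lower in Hypoxia. Without Emp2 they were 170 and 8, 133 genes were higher in Hypoxia, and the CPM in Hypoxia was 14340. With at least 6 endothelial genes and with median scaling, 4 general capillary genes were lower. Thinned to 1000 UMIs, the Hypoxia share was 11.8%, 148 genes and 9 general capillary genes were lower, 11 and 8 genes were called in Hypoxia, with 1 MHC class II, 0 other HIF target, 0 glycolysis and 0 basement membrane genes higher, and the CPM was 19188 and 20250. With cells of other types removed, the Hypoxia share was 10.05%, 153 and 7 were lower, 40 and 47 were called in Hypoxia, with 3 MHC class II, 1 other HIF target and 0 basement membrane genes, and the CPM was 15698 and 16772. Mean per-cell CPM gave 166 and 6 lower and 1 glycolysis gene. A minimum of 10 UMIs gave 323 higher and 190 lower, 749 and 586 in Hypoxia, and 7 other HIF targets, and a minimum of 100 UMIs gave 60 and 30, 34 and 23, 0 other HIF targets and 1 glycolysis gene. With at least 4 markers, chosen after seeing the data, the Hypoxia share was 10%, 236 and 8 were lower, 74 and 47 were called in Hypoxia, and 1 glycolysis gene was higher. In the stricter set the Hypoxia share was 8.85%, 222 genes were higher and 332 lower, with 10 general capillary genes, and 56 and 49 were called in Hypoxia, with 0 MHC class II and 1 basement membrane gene. Fewer UMIs pass the minimum in the thinned and smaller sets; apart from this the cause was not tested.

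Among genes past 2-fold between libraries, signs turned for S100a6 (log2 0.11) with at least 3 markers. After thinning they turned for Iigp1 (-0.11), Prex2 (-0.11), Nckap5 (-2.43), Aplnr (-2.43), Kit (-0.85) and Ptprb (-0.98). The summed other HIF targets, at log2 0.42 over all members with an interval above 0, also turned after thinning (-0.53). Signs turned for Nckap5 (-0.11), Aplnr (-0.95) and Kit (-0.76) without cells of other types, and for Kit (-0.67) and Ptprb (-1.34) in the stricter set. Values short of 2-fold, such as Epas1, Car4, Pmp22, Gpihbp1 and the summed aerocyte lists, also changed sign in the stricter set. So did the summed general capillary list, which was past 2-fold over all members (log2 1.07, against -0.39 in the stricter set, interval -0.81 to 0.03). Without 1 Normoxia cell that held 74 UMIs of this list, the stricter set stood at log2 0.89 (interval 0.34 to 1.46), the same sign as over all members. Against other endothelial cells, thinned Xab2 turned in Normoxia (log2 0.18). Counts, shares and CPM changed in 64 and did not in 118 comparisons with an alternative. Single genes and sums left their main interval in 334, stayed within it in 1256 and, where called, turned sign in 14. Sign changes of values that were not called are not among the 14. In the stricter set 1167 genes reached 30 UMIs.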
